A study of Homo sapiens with 6 samples.

Results

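The mitochondrial respiratory chain and the mitochondrial ribosome were examined for cassette exons whose inclusion differed when RBM47, an RNA-binding protein, was expressed in breast cancer cells. Members were taken by gene symbol alone, as every row of the splicing table whose symbol began with NDUF, UQCR, MRPL or MRPS, with COX and a digit, with ATP5, or with SDH and a letter from A to D. This gave 317 splicing events in 113 genes, of 24725 events in 7969 named genes. In a cassette exon event the middle exon of 3 is spliced in or left out. The 317 events lay in 233 flanking regions, meaning distinct pairs of outer ends, and 63 of these regions held more than 1 event. Events of one region often share the same skipping reads and are not independent.

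The cells were MDA-MB-231-BrM2a, derived from the human breast cancer line MDA-MB-231 and metastatic to brain. The control group (n = 3) was a non-clonal population with the empty vector pRetroX-Tight-Pur, and the RBM47 group (n = 3) was a single-cell clone, WT10, carrying Flag-tagged wild-type RBM47 behind a doxycycline-inducible promoter. Both groups received 10 ng/ml doxycycline for 3 days, and libraries were made from polyA-selected RNA. RBM47 expression and the origin of the cells from 1 clone cannot be told apart in this design. Nothing in the labels states that the samples of a group were separate cultures. Tests on the rates of single samples therefore rest on the spread between these samples, which may be technical. Tests on reads summed over a group hold no such spread. No event of the table lay in RBM47 itself, so the transgene could not be read from these data. Of the mesenchymal or basal markers, 7 of 8 had events (794835 junction reads in control and 533434 in RBM47 cells), and 3 of 11 epithelial or luminal markers had events (3270 and 6407 reads). The part of this difference in the results was not tested.

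The respiratory chain passes electrons from complex I (NADH dehydrogenase) and complex II (succinate dehydrogenase) through complex III (cytochrome bc1) to complex IV (cytochrome c oxidase), and complex V (ATP synthase) uses the resulting proton gradient to make ATP. Most subunits are encoded in the nucleus, and the few encoded in mitochondrial DNA are translated by the mitochondrial ribosome, whose proteins are all nuclear. By symbol, the members comprised 27 complex I genes (80 events), 4 complex II genes (14 events), 5 complex III genes (12 events), 5 complex IV genes (11 events), 15 complex V genes (43 events), 9 assembly factors (27 events), 30 genes of the large ribosomal subunit (78 events) and 18 of the small subunit (52 events). Some members stand in a family by symbol only, such as ATP5S and ATP5SL in complex V. NDUFC2-KCTD14 and ATP5J2-PTCD1 are read-through symbols that share reads with a neighbour.

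The exons behind 3 of the genes described below were identified by matching the outer span of the event, or the distance between ends of neighbouring events, to the GENCODE annotation of GRCh37. NDUFV3 and ATP5C1 are shown because they had events with a limma adjusted p under 0.05. MRPS28 also had such an event but is not shown, since no sequence was taken for exons on its chromosome. MRPS10 is shown because 3 of its events had the next lowest adjusted p among the intermediate members. Their splice sites are printed with 20 intron bases before the exon and 10 after it in lower case, and the first or last 6 exon bases in capitals, 5′ to 3′ on the gene's strand.
NDUFV3 acceptor: ctctttatgccgtttcccagATGTAG
NDUFV3 donor: CACAGGgtataccttg
MRPS10 acceptor: ctttttttccccacacatagCAGTAC
MRPS10 donor: CCTGTGgtatgtactc
ATP5C1 acceptor: tcttctaatataataaccagGGATTA
ATP5C1 donor: CAAGAGgtaaagttca
All 3 introns before the exon end in ag and all 3 introns after it begin with gt. The NDUFV3 exon (chr21:44323292-44324386, plus strand) is 1095 bases long, is entirely coding in the 1 coding transcript among the 2 that hold it, and is a multiple of 3, so that its inclusion or skipping leaves the reading frame as it is, a difference of 365 codons. The MRPS10 exon (chr6:42181858-42181930, minus strand) is 73 bases long and entirely coding in the 1 annotated transcript that holds it, which leaves a remainder of 1 base past whole codons. The ATP5C1 exon (chr10:7848937-7848973, plus strand, annotated as ATP5F1C) is 37 bases long, and 4 of these bases are coding in the 1 coding transcript among the 4 that hold it. The table gives the outer ends of an event and not the ends of the exon, and its coordinates do not lie at the GRCh37 positions of these exons. Where several events share outer ends, the match does not say which version of the exon each one counts.

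Among the 317 member events, 150 matched exactly 1 annotated exon, and these were 109 distinct exons. Of the exons with a mean inclusion rate over 0.9, 24 of 72 (33.3%) were a multiple of 3 in length, with a median of 96.5 bases. Among exons with a mean rate of 0.1 to 0.9 the count was 6 of 17 (35.3%), with a median of 91 bases. Among mostly skipped exons, below 0.1, it was 4 of 20 (20%), with a median of 92.5 bases. The NDUFV3 exon was the longest of the 109.

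The inclusion rate is a fraction given for each sample. In many events it was close to the including junction reads over the sum of these and 2 times the skipping reads. That form allows for inclusion making 2 junctions and skipping 1, and rates from read totals were computed by it. Some given rates were far from it, as in 1 COX20 event with a control mean of 0.0532 against 0.640 from read totals. The reason for such gaps was not tested. Read totals were given per group only, so the depth of a single sample is unknown. The members were deeply covered, with a median of 2845 reads per event over both groups against 665 over all events, and a range from 56 to 42628. Inclusion was near constitutive, over 0.9, in 184 of the 317 events (58%), against 55.7% of all events. The exon was mostly skipped in 73 events (23%), against 20% of all. The remaining 60 events (18.9%), in 27 genes, had intermediate rates, against 24.3% of all events. The rate was 1 in all 6 samples in 10 events and 0 in all 6 in 4 events. These classes rest on the given rates, and some events classed as mostly skipped had more including than skipping reads. In MRPS6, 1 event with a rate of 0 in all 6 samples had 333 including and 40 skipping reads in control.

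The members with most reads in each family were near constitutive in 6 of the 7 complexes and ribosomal subunits. ATP5B, which encodes the catalytic beta subunit of ATP synthase, had the most reads of any member event. Its rates were 0.956, 0.939 and 0.955 in control and 0.957, 0.954 and 0.951 in RBM47 samples, so the groups overlapped. NDUFC2-KCTD14 had mean rates of 0.994 in both groups, SDHA, the flavoprotein subunit of complex II, 0.935 and 0.946, MRPL14 0.984 in both and MRPS15 0.986 and 0.985. COX7A2, a small subunit of complex IV, had means of 0.984 and 0.977, and its groups did not overlap (Fisher adjusted p = 0.0447). UQCRH, the hinge protein of complex III, was the exception with an intermediate mean of 0.850 in control and 0.861 in RBM47 samples, and its groups overlapped. Its rate from the read totals was much higher, 0.989 and 0.991, with 45 and 42 skipping reads. SDHAF2, the assembly factor that adds flavin to SDHA, had a mean of 0.999 in both groups.

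The change in inclusion rate (ΔI) is the RBM47 mean minus the control mean. The study called an event changed at an unadjusted Fisher p of at most 0.05 on the summed reads, a ΔI of at least 0.2 in either direction and at least 10 reads. By these criteria 0 of the 317 member events changed, against a background of 346 of 24706 events with rates (1.4%). This background was counted here from the matched rates and from Fisher's test on the read totals. It is larger than the number of changed exons that the study reported, and the gap was not examined. Among events with at least 1000 reads, which held 260 of the members, the background was 46 of 9607 (0.479%), and again 0 members passed. At a ΔI of at least 0.1, 9 of the 317 member events passed (2.84%) against 3.61% of all events, and 6 of 260 (2.31%) against 1.94% among those with at least 1000 reads. All 9 were lower in RBM47 samples, where the background for this direction was 1.99%. They lay in 5 genes, NDUFV3, MRPS10, ATP5S, ATP5J and MRPL55, and the 3 events of MRPS10 have the same skipping reads, as do the 3 of MRPL55.

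Without a limit on ΔI, the Fisher p was at most 0.05 in 77 of 317 member events (24.3%), 39 with a rise and 38 with a fall, in 45 genes, against 14.4% of all events. Among events with at least 1000 reads the shares were 69 of 260 (26.5%) and 20.2%. After Benjamini-Hochberg adjustment over all events, 36 member events (11.4%), 18 up and 18 down, had a Fisher adjusted p under 0.05 against 5.29% of all events, and 95 of the 113 genes had none. The ΔI of these 36 was small, with a median size of 0.0432, and 19 of them moved by less than 0.05. Fisher's test on summed reads does not see the spread between samples, and the deeper coverage of the members stands beside their higher share of small p-values. Its part in that share was not tested beyond the 1000-read comparison. In 40 member events (12.6%), 14 up and 26 down, the ranges of both groups were separate, against 9.92% of all events.

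**Figure D1:**
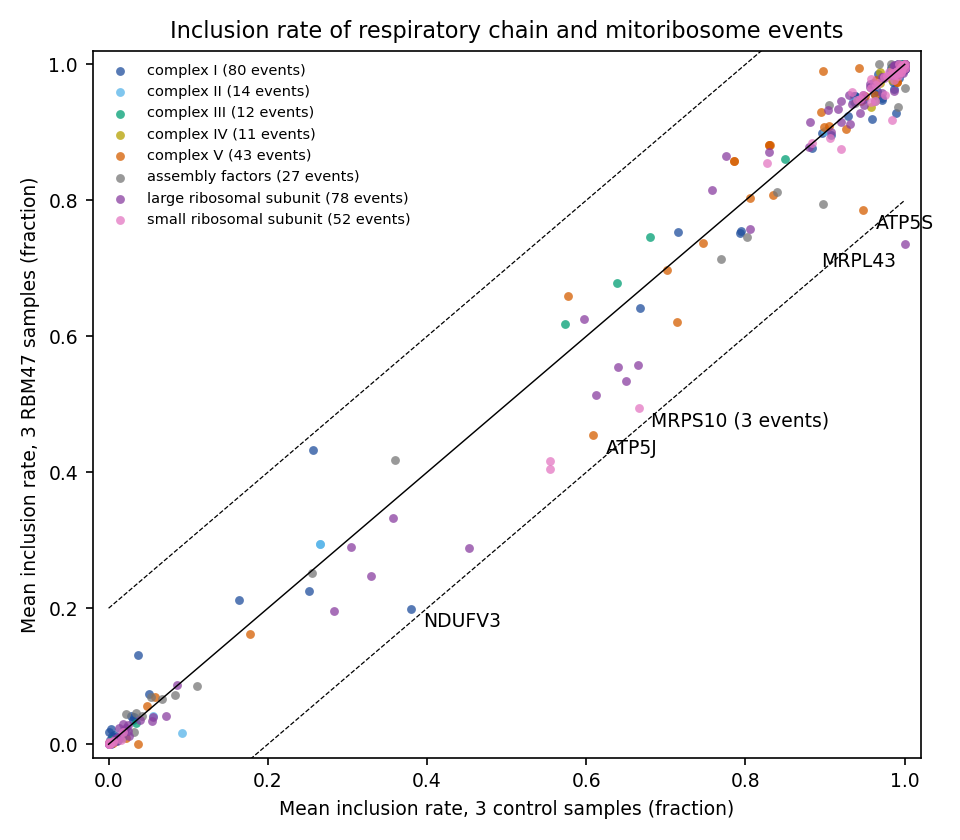
Mean inclusion rate of each of the 317 member events in the 3 control samples (x axis) and the 3 RBM47 samples (y axis), coloured by complex or ribosomal subunit. The solid line marks equal rates and the dashed lines a ΔI of 0.2 up or down. MRPL43 is the 1 event beyond them.

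The difference between groups was tested against the spread between samples with limma, after an arcsine square root transformation. This was done for the intermediate events, whose mean rate was 0.1 to 0.9. Of the 60 member events tested, 1 had an adjusted p under 0.05 (1.67%, against 2.23% of the 5998 events tested), and 0 combined this with a ΔI of at least 0.2, against 1.53%. At an unadjusted limma p under 0.05 there were 14 member events (23.3%) in 7 genes, 6 up and 8 down, against 12% of all events tested. Several of the 14 share skipping reads, as in ATP5A1, MRPS10 and MRPL2, and are not independent. When events of every mean rate were tested, which was added after seeing the data as a count with no minimum ΔI, 4 member events in 3 genes had an adjusted p under 0.05, against 0.603% of all 24706 events. These were NDUFV3, 2 events of ATP5C1 and 1 of MRPS28.

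In complex I, the difference lay in NDUFV3, an accessory subunit of the NADH-binding arm that is known in a short form and in a long form containing an additional large exon. The event (chromosome 21, 43190105 to 43202281 in the coordinates of the table) had rates of 0.386, 0.389 and 0.365 in control and 0.219, 0.172 and 0.208 in RBM47 samples. All 3 RBM47 samples were well below all 3 control samples. The mean fell from 0.380 ± 0.0131 (SD, n = 3) to 0.199 ± 0.0247 (SD, n = 3), a fall by 0.181, with a limma adjusted p of 0.00388. Read totals moved the same way, from 3241 including and 511 skipping reads to 2856 and 875 (Fisher adjusted p = 2.1e-25). The rate computed from totals was higher in both groups and fell by less, from 0.760 to 0.620. The reads behind each sample's rate were not given, so the reason for this gap could not be traced. Without a variance trend the limma adjusted p was 0.142, and it was between 0.019 and 0.036 when any 1 sample was left out. The other 2 NDUFV3 events, which concern a neighbouring exon or a wider pair of ends, stayed near 1, with means of 0.998 and 0.990 in control and 0.990 and 0.993 in RBM47 samples. Summed over its events, junction reads of the gene were 5991 in control and 6465 in RBM47 cells.

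The other complex I events with intermediate rates moved less. NDUFB6, an accessory subunit of the membrane arm, had rates of 0.717, 0.718 and 0.710 in control and 0.765, 0.746 and 0.749 in RBM47 samples in the event from 32548907 to 32563054 on chromosome 9. These groups did not overlap and each was tight, but the rise of 0.0384 had a limma adjusted p of 0.460. A second NDUFB6 event had means of 0.883 and 0.877, and its groups overlapped. NDUFS4, a subunit of the arm that faces the matrix, stayed at 0.896 ± 0.0223 and 0.899 ± 0.0148 (SD, n = 3). In NDUFA5, 4 events had intermediate rates on few reads, and the largest ΔI of complex I after NDUFV3, 0.175, rested on 55 control reads and 20 RBM47 reads, with single samples from 0 to 0.714.

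Complexes II, III and IV held no event with a ΔI of 0.1 or more in size, against 3.79% of all members and 8.78% of all events. In complex II, 0 of 14 events had a Fisher p of at most 0.05, against 14.4% of all events, and the median size of ΔI was 0.00259. SDHC, one of the membrane anchors, had the only intermediate events, whose mean was 0.266 in control and 0.295 in RBM47 samples. In complex III, 4 UQCRH events were intermediate, and the largest move was from 0.680 to 0.746. In complex IV, 10 of 11 events were near constitutive and 1 was mostly skipped, and the largest ΔI was 0.0214 in size. All 4 complex IV events with an adjusted Fisher p under 0.05 were in COX7A2, 2 up and 2 down.

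In complex V, inclusion rose in ATP5C1, the gamma subunit that forms the rotating stalk, in the test over events of every mean rate. ATP5S and ATP5J had values lower by more than this in RBM47 samples, but neither passed the limma test. The matched ATP5C1 exon is the short exon that is known to be skipped in heart and skeletal muscle and included in most other tissues. Its 2 events share the outer ends 7884726 and 7889769 on chromosome 10 and the same skipping reads. In the first, the rates were 0.937, 0.942 and 0.950 in control and 0.996, 0.993 and 0.996 in RBM47 samples, a rise of 0.0520 (limma adjusted p = 0.0187 over events of every mean rate). In the second, they were 0.909, 0.882 and 0.9 in control and 0.991, 0.985 and 0.994 in RBM47 samples, a rise of 0.0929 (limma adjusted p = 0.0259). Skipping was rare in control and rarer in RBM47 samples, with 245 and 22 skipping reads beside 8248 and 8577 including reads in the first event. Every RBM47 sample was above every control sample in both events. Summed over all its events, with shared reads counted in each, junction reads of ATP5C1 were 32704 in control and 33065 in RBM47 cells. These events had mean rates over 0.9 and so were not among the 60 tested first.

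In ATP5S, known as coupling factor B, the event from 49858978 to 49862417 on chromosome 14 had rates of 0.938, 0.907 and 1 in control and 0.771, 0.722 and 0.863 in RBM47 samples. The groups did not overlap, but they were spread, and the ΔI of -0.163 had a limma adjusted p of 0.172. This value rests on a correction of the table described with MRPS10, and the rates as deposited in the row would have given -0.00322, whereas the read totals gave -0.108. The skipping reads behind it were 7 in control and 30 in RBM47 cells. ATP5J, which encodes coupling factor 6 of the stator stalk, had rates of 0.667, 0.574 and 0.585 in control and 0.399, 0.507 and 0.460 in RBM47 samples in the event from 26023812 to 26029773 on chromosome 21. Its groups did not overlap either, and the ΔI of -0.154 had a limma adjusted p of 0.225. From the read totals the ΔI was smaller, -0.0887.

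ATP5A1, the alpha subunit of the catalytic head, had 6 events with the same outer ends on chromosome 18 (41925645 to 41932259) and the same 356 and 280 skipping reads. In the event with the largest ΔI the rates were 0.804, 0.759 and 0.792 in control and 0.889, 0.855 and 0.828 in RBM47 samples. The groups were separate in 2 of the 5 intermediate events of this region, and the 5 had ΔI between 0.0502 and 0.0724 with limma adjusted p from 0.20 to 0.416. ATP5J2-PTCD1 stayed at 0.746 ± 0.0241 and 0.738 ± 0.0431 (SD, n = 3).

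In the large ribosomal subunit, 0 of the 17 intermediate events had a limma adjusted p under 0.05, against 2.23% of all events tested. The largest ΔI of any member was in MRPL43, from 102733501 to 102736942 on chromosome 10. The exon was always included in the control samples (rate 1 in each), and the RBM47 samples had 0.571, 1 and 0.636. The groups met at 1. Control had 51 including and 0 skipping reads, and RBM47 cells had 47 and 5. The Fisher p was 0.0565 and the limma adjusted p 0.431, so the fall of 0.264 passed neither test. A second MRPL43 event with the same outer ends and the same skipping reads but 2932 and 3813 including reads had means of 1 and 0.994.

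MRPL55 had 11 events, as many as any member, and 8 of them were intermediate. In the event with its largest ΔI (226362558 to 226363635 on chromosome 1) the rates were 0.390, 0.612 and 0.358 in control and 0.181, 0.362 and 0.324 in RBM47 samples. The groups overlapped, and the ΔI of -0.165 had a limma adjusted p of 0.449. Without control replicate 2, the highest sample, the ΔI was -0.0852. A pair of further events with the same skipping reads, 98 in control and 138 in RBM47 cells, had ΔI of -0.107 and -0.115, and a further one -0.0305. Another pair with the same outer ends and other skipping reads had ΔI of 0.0887 and 0.0574. MRPL2 had means of 0.806 and 0.758 in the event with more reads, with separate groups and a limma adjusted p of 0.403. MRPL9 had means of 0.830 and 0.871, also with separate groups (limma adjusted p = 0.432). MRPL33 had means of 0.597 and 0.626 and MRPL52 0.880 and 0.878, and both had groups that overlapped.

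In the small ribosomal subunit, values were lower in RBM47 samples in MRPS10 and in 1 event of MRPS28. MRPS10 had 3 events with the outer ends 42287496 and 42290059 on chromosome 6 and the same skipping reads, which numbered 465 in control and 766 in RBM47 cells. In the event with most including reads (1883 and 1583), the rates were 0.684, 0.624 and 0.690 in control and 0.504, 0.408 and 0.574 in RBM47 samples. In the second they were 0.561, 0.523 and 0.578 against 0.431, 0.345 and 0.440, and in the third 0.559, 0.519 and 0.584 against 0.442, 0.358 and 0.449. The groups were separate in all 3 events, with RBM47 replicate 2 the lowest in each. The falls were 0.171, 0.149 and 0.138, and the limma adjusted p was 0.0904, 0.0700 and 0.0919, so none passed at 0.05. Summed over the 3 events, junction reads were 5654 and 6082, in which the shared skipping reads count 3 times. The event with most including reads had 2348 and 2349 reads.

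The rates of MRPS10 depended on a correction of the table. In 16 member rows, in 10 genes, the sample rates did not average to the averages printed in the same row, and the rates of the row that did match were used. For those 16 rows the median gap between the control rate and the share given by the read totals was 0.00410 after matching and 0.337 as deposited. The direction of ΔI was that of the read totals in 13 of the 16 rows after matching and in 10 as deposited. With the rates as deposited in their rows, the ΔI of the 3 MRPS10 events would have been -0.0263, 0.0388 and -0.0574, and that of the MRPS28 event described next 0.0638, against -0.0653 after matching. The rows of ATP5C1, ATP5S, MRPS28, MRPL33 and the first NDUFB6 event were corrected in the same way, and that of NDUFV3 was aligned as deposited.

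In MRPS28, the event from 80993644 to 81105059 on chromosome 8 had rates of 0.988, 0.981 and 0.982 in control and 0.915, 0.915 and 0.925 in RBM47 samples. The groups were separate and tight, and the fall of 0.0653 had a limma adjusted p of 0.0198 over events of every mean rate. Skipping reads numbered 8 in control and 54 in RBM47 cells, beside 1299 and 1751 including reads. The other MRPS28 event, whose ends differ by few bases, had means of 0.940 and 0.947 and its groups overlapped. MRPS5 had means of 0.883 and 0.884, and MRPS18C 0.906 and 0.892, both with groups that overlapped.

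**Figure D2:**
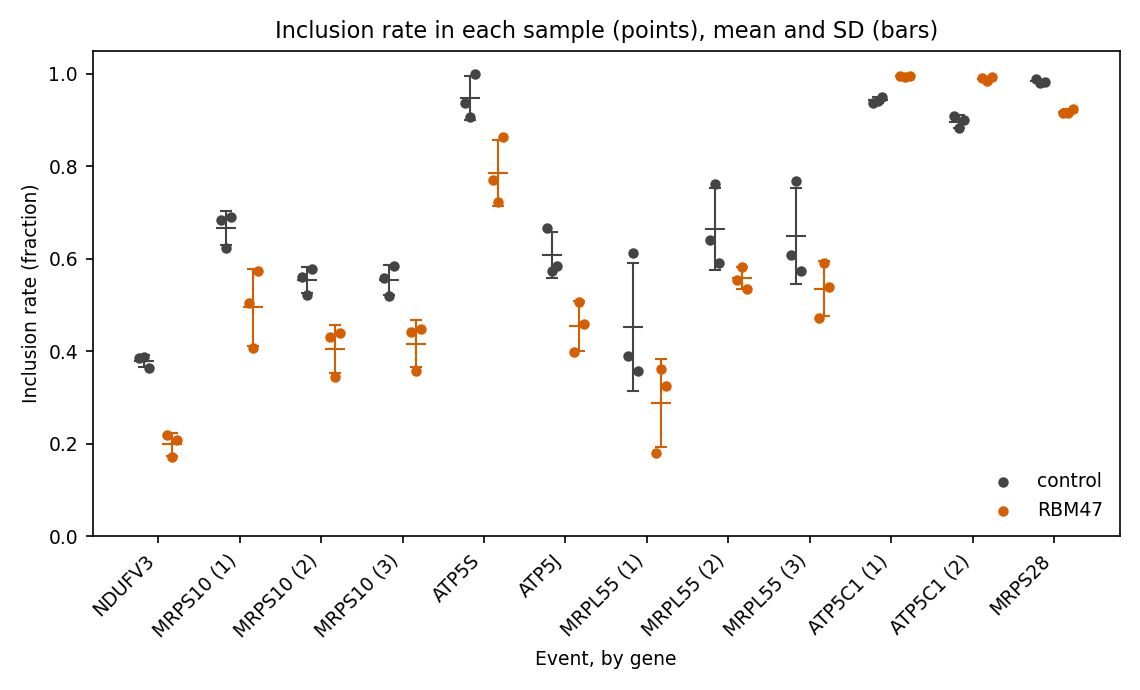
Inclusion rate (y axis, fraction) in each of the 3 control and 3 RBM47 samples for 12 events in 7 genes, with the mean and SD as bars. Numbered events of one gene share outer ends. The NDUFV3 groups lie apart, at 0.365 to 0.389 and 0.172 to 0.219, whereas those of MRPL55 (1) overlap.

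Assembly factors, which build the complexes but are not part of them, had 6 intermediate events in COX11, NDUFAF5, NDUFAF7 and SDHAF2. Of their 27 events, 0 had an adjusted Fisher p under 0.05, against 5.29% of all events. The largest ΔI was in COX11, a copper delivery factor of complex IV. Its mean rate was 0.898 in control and 0.795 in RBM47 samples, and the groups overlapped (limma adjusted p = 0.483). Few reads skipped the exon, 3 and 8, beside 434 and 460 that included it. By these totals both rates were higher than the given means, and the fall was smaller. The reason for this gap was not tested.

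With a minimum of 30 reads per group, 314 member events remained, and their median inclusion rate was 0.949, 0.951 and 0.951 in control and 0.952, 0.947 and 0.947 in RBM47 samples. The groups overlapped, and their means, 0.950 ± 0.00104 and 0.949 ± 0.00292 (SD, n = 3), differed by less than the spread among the RBM47 samples. Over all 22973 such events the means were 0.942 and 0.946. The median size of ΔI was 0.00696 over the members and 0.0114 over all events, and among intermediate events 0.0480 and 0.0597. The median SD between samples of a group was 0.0421 for intermediate member events, on a median of 1496 reads, and 0.0774 for all intermediate events, on 401 reads.

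Beyond the members, 187 further genes of mitochondrial assembly, electron carriers, mitochondrial translation, mitochondrial DNA and import were listed, and 126 of them had 443 events. By the study criteria 2 of the 443 changed (0.451%, against the same 1.4%), and both fell. MTRF1L, a mitochondrial release factor, had rates of 1, 1 and 0.600 in control and 0.250, 0.143 and 0.800 in RBM47 samples, on 55 and 81 reads. Its row was one of those corrected, and the rates as deposited there would have given a ΔI of 0.436. PPARGC1B, a coactivator of mitochondrial biogenesis genes, had a rate of 1 in each control sample, and 0.455, 1 and 0.429 in the RBM47 samples, on 21 and 18 reads. The groups overlapped or met in both, and the limma adjusted p was 0.294 and 0.494. In the limma test 0 of 76 listed events had an adjusted p under 0.05, 11 (14.5%) had an unadjusted p under 0.05 against 12% of all events tested, and 24 of 443 (5.42%) had an adjusted Fisher p under 0.05 against 5.29%. Both shares were near the background.

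Junction reads of the members did not follow those of all genes. They numbered 742852 in control and 788569 in RBM47 cells, a ratio of 1.06, whereas reads over all events went from 26498401 to 24116982, a ratio of 0.910. The share of all junction reads that came from members was 2.80% in control and 3.27% in RBM47 cells. All totals here, also those per gene, were summed over events, so reads that several events share were counted in each. These totals exist once per group, so the ratios have no replicate check and no test, and in bulk RNA fewer cells of a type and less RNA per cell cannot be told apart. Per gene, the median ratio was 1.04 over the 113 members and 0.859 over the 7518 genes with at least 100 reads, and 93 of the 113 were above that median. The ratio was above 1 in 69 members (61.1%) and in 32.3% of all genes.

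By family, the median ratio per gene was 1.15 in complex III, 1.11 in complex IV, 1.07 in complex I, 1.06 in the large ribosomal subunit and 1.04 in complex V. It was 0.994 in the small subunit, 0.983 in complex II and 0.896 among assembly factors. NDUFC2, a complex I subunit, had the highest ratio, 1.67, with 5391 and 9007 reads, some of them shared with its read-through symbol. It was followed by MRPL46 at 1.61 and COX4I1, a nuclear-encoded subunit of complex IV, at 1.53 (11287 and 17246 reads). The lowest ratios were 0.564 in NDUFAF7, a methyltransferase needed for complex I assembly, 0.586 in NDUFS1, the largest iron-sulphur subunit of complex I, 0.592 in COX18, a membrane insertion factor of complex IV with 355 and 210 reads, and 0.632 in ATP5G3, a gene for the c subunit of the ATP synthase ring. Among the genes whose inclusion is described above, the ratio was 1.08 in NDUFV3, 1.08 in MRPS10, 1.01 in ATP5C1, 1.38 in MRPS28, 1.24 in MRPL43, 1.29 in ATP5J, 1.03 in ATP5S, 0.918 in MRPL55 and 0.828 in NDUFA5.

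**Figure D3:**
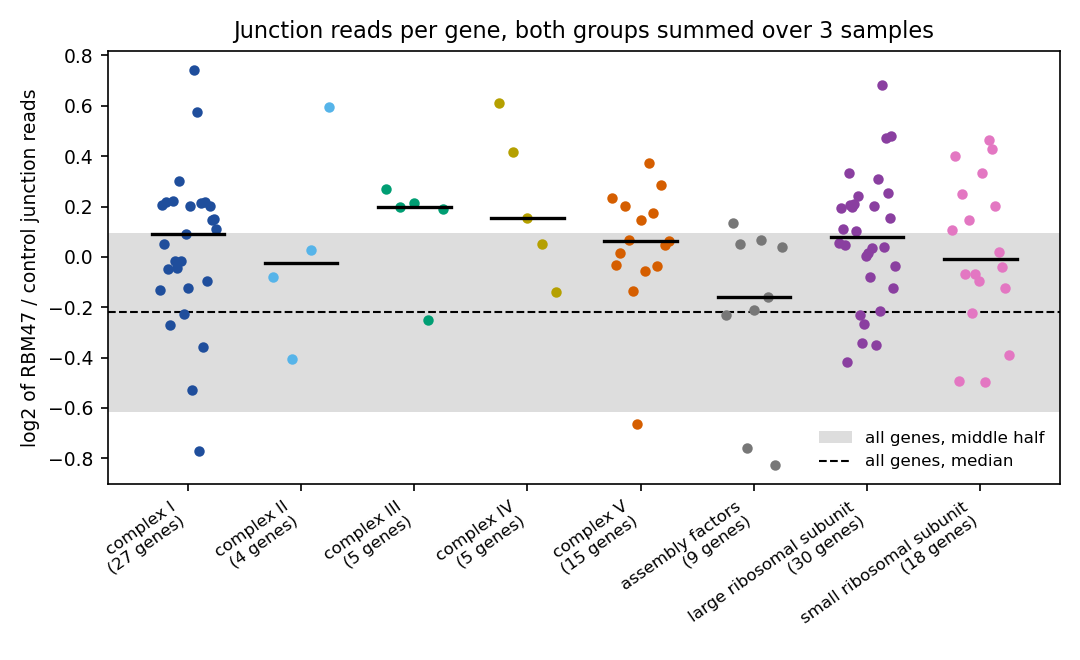
Ratio of junction reads, RBM47 over control, on a log2 scale (y axis) for each member gene, by complex or ribosomal subunit, with family medians as bars. Reads are summed over the events of a gene, with shared reads counted in each event. The dashed line is the median ratio over all genes (0.859) and the grey band their middle range, from 0.653 to 1.07. All family medians lie above the line, with that of the assembly factors nearest to it.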

How the data were processed

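The authors mapped reads to cassette exon junctions and deposited 1 table with inclusion rates, as a fraction per sample. Read counts were deposited only as totals of a group of 3, for including and for skipping junctions. Its columns of differences, odds ratio (a ratio) and Fisher p-value, also deposited by the authors, were not used. TopHat is named in the processing notes, and the study's methods name hg19, the same as GRCh37, as the genome its cell line RNA-seq reads were mapped to. The build of the table's coordinates is not given in the sources used here, and those of the 3 genes matched to exons differ from GRCh37, so table coordinates are printed with no build and exon positions are those of GRCh37. Of 24725 rows, 23333 had rates that averaged to their own row's averages within 3e-09. A further 1122 rows were matched by both averages and 251 by the RBM47 average, and 19 were left without rates. Fisher's exact test (two-sided, scipy 1.17.1) was run on the 4 read totals and adjusted over all events (statsmodels 0.14.6). limma 3.58.1 (R 4.3.3) was run on arcsine square root rates with a variance trend on reads, over all events with a mean rate of 0.1 to 0.9. Both tests were checked on simulated data. A call needed an adjusted p under 0.05. Intervals were not computed, since no counts per sample were used. Members and gene lists were chosen with earlier results of these data known. Named events were those past either test, the 10 with the largest ΔI where both groups had at least 30 reads, the 20 intermediate events with most reads, the deepest event of each family, further events of genes that passed, and listed pathway events past the study criteria. The events of NDUFA5, SDHC, COX11, ATP5C1 and MRPS28, COX20 and MTX1, 3 UQCRH events, further events of MRPL43, and the genes given by read ratio, were named after their values were seen. Alternatives covered read minimums, ΔI limits, transformations, row matching, the replicate block and leaving out each sample.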

Additional observations from a re-analysis of the deposited data

How the results depend on the processing

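The count of members past the study criteria was 0 and became 9 with a minimum ΔI of 0.1, 5 with 0.15 (added after seeing the data) and 1 with rates from summed reads (COX20, on 56 reads). When 1 sample was left out it ranged from 0 to 2. MRPL55 passed without control replicate 3 (ΔI of -0.212) or RBM47 replicate 2 (ΔI of -0.201), while its ΔI was -0.0852 without control replicate 2 and -0.11 without RBM47 replicate 1, and 1 MRPS10 event and ATP5S passed without RBM47 replicate 3 (ΔI of -0.211 and -0.201). The limma count of 0 became 1 (NDUFV3) with no minimum ΔI and 4 with every mean rate and no minimum ΔI, the latter added after seeing the data. NDUFV3 had an adjusted p of 0.142 without the variance trend and between 0.0013 and 0.0402 under the other settings. Of the pathway list, 2 became 10 with a minimum ΔI of 0.1 and 1 with adjusted Fisher p, with at least 20 or 30 reads in each group, or with only aligned rows. The limma count of the list went from 0 to 2 (TMEM126B and MTG1) with every mean rate and no minimum ΔI. By the study criteria the list had 3, with MTX1 added, when control replicate 1, control replicate 3 or RBM47 replicate 3 was left out. The ΔI of the members' median was -0.00166, -0.00468 as a mean over events, and between -0.00333 and -0.000618 when 1 sample was left out. The ratio of read shares was 1.166, and 1.17 with 1 event per flanking region. Samples with the same number did not deviate together (correlations of -0.0222, -0.0056 and 0.0142), which gives no pairing by number. With a replicate block the count of members stayed at 0 and that of the list at 0, 1 MRPS10 event reached an adjusted p of 0.0467, and NDUFV3 had 0.0174. With untransformed rates the lowest MRPS10 adjusted p was 0.0312. Total reads per group limit what can be said of single samples.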
